A study of Homo sapiens with 18 samples.

Results

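The 10 genes described here load and build the replicative helicase at origins of DNA replication: MCM2, MCM3, MCM4, MCM5, MCM6, MCM7, MCM10, CDC6, CDT1 and ORC1. They were chosen by symbol, with earlier results of these data known. Counts of members beside shares of all genes are therefore descriptions and not tests. All 10 were found among the 15747 genes of the authors' table of cytoplasmic and polysomal RNA and among the 44682 genes of their whole-cell table. DU145, a prostate carcinoma line from a metastasis that is known to lack functional RB protein, received 40 µM GC7 for 24 h, or vehicle only. GC7 inhibits deoxyhypusine synthase, the enzyme that starts the conversion of a lysine of the translation factor eIF5A to hypusine. The groups were GC7 whole-cell, GC7 cytoplasmic and GC7 heavy polysomal RNA, and vehicle whole-cell, vehicle cytoplasmic and vehicle heavy polysomal RNA, with 3 libraries in each. All cells belong to a single line, and the labels' protocol gives emetine (25 µg/ml for 10 min), which holds ribosomes on mRNA, before lysis.

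The deposited values are the results of the authors' comparisons, with no value per library. Depth per library is therefore unknown, and each error below is an SE of a fold change. The labels do not say whether replicates came from separate cultures, and every p-value below rests on a spread among libraries that may be technical. Neither table names its numerator. The category "UP" of the fraction table was read as higher with GC7, and the sign of the whole-cell table was reversed because its values ran against those of the fractions (Spearman's rho of -0.27 with cytoplasm and -0.37 with polysomes, across genes, which are not independent replicates). On the opposite reading every direction below turns round. The epithelial markers chosen for the line, KRT8, KRT18, KRT19, EPCAM and CDH1, were all listed in the fraction table. Of 7 markers of blood, endothelium and fibroblasts, 5 were not listed there.

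Licensing takes place from late mitosis through G1. The origin recognition complex, of which ORC1 is the largest subunit and an ATPase, binds DNA and is joined by CDC6, a related ATPase. CDT1 then brings in the ring of MCM2 to MCM7, which is laid down as an inactive double hexamer, and MCM10 acts later, when the ring is turned into a moving helicase with CDC45 and GINS. Transcription of most of these genes is known to be driven by E2F factors at the passage into S phase, and eIF5A with hypusine is known to help ribosomes through runs of proline and other slow motifs.

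The promoter stretches are shown because the E2F letters are a feature that most of these genes share and that the choice of genes did not use. Promoters of 8 of the 10 genes were matched by symbol in a RefSeq-derived table for GRCh38.p14, each running 250 bases before to 50 after the start of transcription. The letters searched, on both strands, were TTTCCCGC, TTTGGCGC, TTTCGCGC and TTTGCCGC. At least 1 match was present in 6 of the 8 promoters, those of MCM2, MCM3, MCM6, MCM7, CDT1 and CDC6, against 3.33% of 27305 promoters in the table and 5.38% of the 11138 whose gene is in the fraction table. In the related groups described further on, the same letters were in 5 of 15 promoters of origin firing genes, 4 of 14 of proliferation genes, 3 of 12 of turnover genes and 2 of 11 of other licensing factors, with no test of the difference. The same letters without their first T, which overlap the longer ones, were found in 7 of the 8, ORC1 included, in 8 of 15 promoters of firing genes and in 20.8% of promoters of measured genes. MCM10 held neither, and its stretch is shown for a pair of CCAAT boxes, letters found in 6 of the 8 and in 36.3% of promoters of measured genes. TTTGAA, a form of the element of genes expressed in G2 and M, was in none of the 8 and in 9.19% of promoters of measured genes. Matched E2F letters, or CCAAT in MCM10, are in capitals below, each run reads 5′ to 3′ on the strand of its gene, and a match is a description of letters and not of binding.
MCM6 (chr2:135876516-135876601, minus strand): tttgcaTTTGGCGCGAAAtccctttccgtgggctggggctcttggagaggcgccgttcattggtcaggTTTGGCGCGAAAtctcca
MCM3 (chr6:52284901-52284924, minus strand): atggtacgTTTCCCGCcaccgcgg
MCM7 (chr7:100101569-100101592, minus strand): ctcggaccGCGGGAAAcccggcgc
CDT1 (chr16:88803744-88803779, plus strand): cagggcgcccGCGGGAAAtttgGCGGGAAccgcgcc
MCM2 (chr3:127598405-127598432, plus strand): gaaccactTTTCGCGCGAAAcctggttg
CDC6 (chr17:40287875-40287901, plus strand): ggccattcggaTTTGGCGCgagcgcgg
ORC1 (chr1:52404426-52404455, minus strand): gccacgccgaTTGGCGCGAAgttttctttt
MCM10 (chr10:13161431-13161466, plus strand): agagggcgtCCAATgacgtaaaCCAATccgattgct
MCM6 carried TTTGGCGCGAAA at 2 places, where TTTGGCGC and the reverse complement of TTTCGCGC overlap. In MCM2 the element TTTCGCGCGAAA, which equals its own reverse complement, lay after the start of transcription. The capitals in ORC1 and the second run of capitals in CDT1 are the shorter form. MCM3 and MCM7 each held a further match of the longer form close to the start, which is not shown. The MCM7 stretch lies inside the GENCODE gene given further on, because the start used for its promoter differs from that of GENCODE.

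Across the 10 genes, GC7 was followed by lower cytoplasmic RNA for CDC6 and by lower polysomal RNA for MCM10 and ORC1. No member was called higher in either fraction. The ring subunits MCM2 to MCM7 passed the test in neither fraction. By the authors' deposited table, 1 of 10 members was lower in cytoplasm at an adjusted p under 0.05, against 1.95% of all genes, and 2 of 10 were lower in polysomes, against 5.48%. The authors' own category for all 10 members, and for every gene of the related groups described further on, was "Non significative". A call here therefore means only an adjusted p under 0.05 in the named fraction. The corresponding shares of all genes that were higher were 2.29% in cytoplasm and 5.61% in polysomes. All 10 members had negative cytoplasmic values and 7 reached an unadjusted p under 0.05 there, against 8.13% of all genes lower and 7.31% higher at that threshold. In polysomes 8 had negative values and 2 reached an unadjusted p under 0.05, against 12.1% of all genes lower and 11.2% higher. The deposited median was -0.31 over the members and -0.0036 over all genes in cytoplasm, and -0.10 over the members and -0.0049 over all genes in polysomes. Since the RNA is from bulk cells, fewer cells with a transcript and less of it per cell cannot be told apart.

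**Figure D1:**
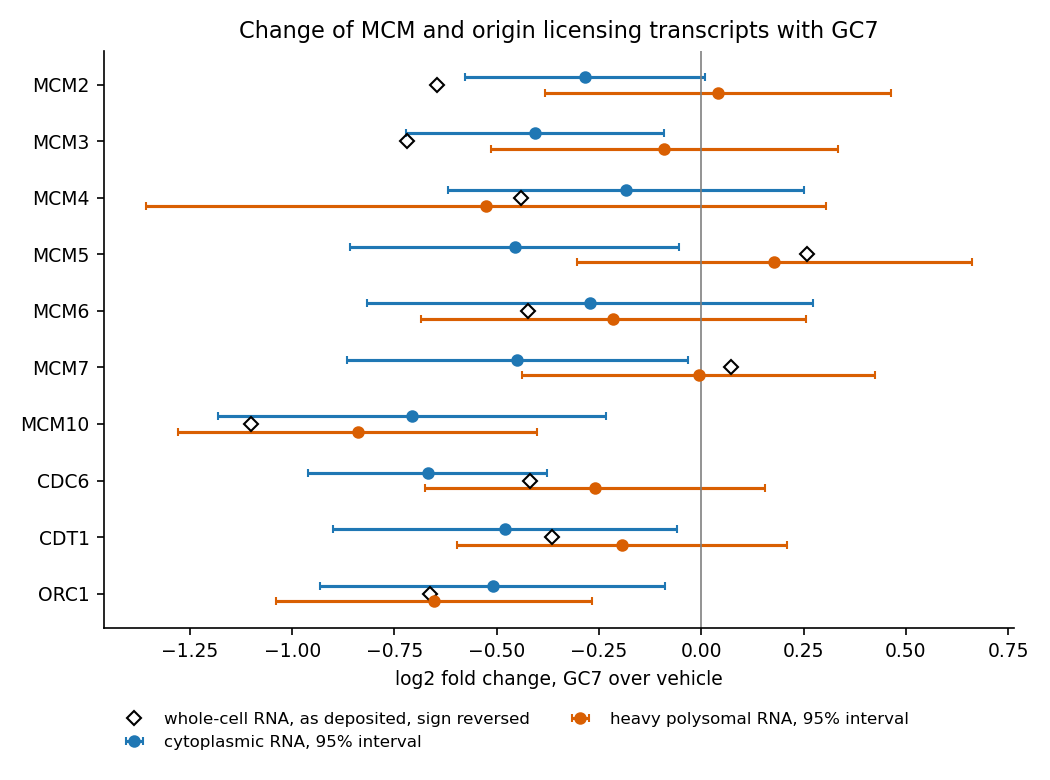
Log2 fold change, GC7 over vehicle, of each of the 10 transcripts: filled points are unshrunken estimates in cytoplasmic (blue) and heavy polysomal RNA (orange) with 95% intervals, and open diamonds are whole-cell values, sign reversed, from the authors' deposited table, for which the table has no error column. All 10 cytoplasmic points lie below 0, while polysomal points run between -0.84 for MCM10 and 0.18 for MCM5.

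Fold changes in the fraction table are pulled towards 0 by shrinkage, and the estimate before shrinkage was recovered from the deposited fold change, SE and p. Levels were set on a scale that allows genes to be compared, as the authors' mean normalized count over the 6 libraries of a fraction per kb of the canonical transcript of GENCODE. MCM7 was highest of the 10 on that scale, at 1542 per kb in cytoplasm and 1771 per kb in polysomes, and MCM3 followed at 1523 per kb in cytoplasm and 1190.1 per kb in polysomes. ORC1 was lowest in cytoplasm at 105 per kb, next to MCM10 at 138 per kb, and in polysomes the order of that pair was reversed, with 161 per kb for ORC1 and 144 per kb for MCM10. The RNA levels of the 6 ring subunits in cytoplasm spanned 589 per kb for MCM6 to 1542 per kb for MCM7. No spread over libraries is given for these levels, so neighbours in the order, such as MCM7 and MCM3 in cytoplasm, cannot be called different.

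From the mean and the unshrunken fold change the mean of each group was calculated, on the assumption that both groups weigh equally in the deposited mean. Gene positions are those of GENCODE on GRCh38. MCM3, a ring subunit with an ATPase site (chromosome 6, 52264014 to 52284881, minus strand, 17 exons), had a calculated cytoplasmic mean of 4018 normalized counts with GC7 and 5325 with vehicle, and in polysomes 3537 with GC7 and 3765 with vehicle. Its unshrunken log2 fold change was -0.41 in cytoplasm (SE 0.16) and -0.090 in polysomes (SE 0.22), and the authors' deposited adjusted p-values were 0.139 and 0.865. The cytoplasmic interval of MCM3, -0.72 to -0.091, lay below 0 before adjustment over all genes, and the polysomal interval, -0.52 to 0.34, covered 0.

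MCM5, the neighbour of MCM2 at the gate through which the ring opens (chromosome 22, 35400134 to 35425431, plus strand, 17 exons), had 3531 with GC7 and 4845 with vehicle as calculated cytoplasmic means, and 2991 with GC7 and 2643 with vehicle in polysomes. Its unshrunken log2 fold change was -0.46 in cytoplasm (SE 0.21) and 0.18 in polysomes (SE 0.25). The estimates of MCM5 thus lay on opposite sides of 0 in the fractions, and neither passed, with adjusted p-values of 0.234 and 0.738 in the authors' deposited table. MCM7, which also hosts the microRNA genes MIR25, MIR93 and MIR106B in an intron (chromosome 7, 100092233 to 100101940, minus strand, 15 exons), had calculated cytoplasmic means of 3215 with GC7 and 4392 with vehicle. Its polysomal means were 4361 with GC7 and 4379 with vehicle, the closest pair of the 10 genes. The unshrunken values of MCM7 were -0.45 in cytoplasm (SE 0.21) and -0.0059 in polysomes (SE 0.22). MCM7 overlaps AP4M1 on the other strand, with starts 391 bases apart. Whether the counting used strand is not given in the sources used here, so reads of the shared stretch cannot be told apart.

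The other ring subunits were closer to vehicle in cytoplasm. MCM2, which binds histones with its N-terminal tail (chromosome 3, 127598410 to 127622436, plus strand, 16 exons), had an unshrunken value of -0.28 in cytoplasm (SE 0.15) and 0.041 in polysomes (SE 0.22). A long noncoding RNA gene overlaps MCM2 on the other strand. MCM6, a subunit that CDT1 touches in the loading complex (chromosome 2, 135839626 to 135876443, minus strand, 17 exons), had -0.27 (SE 0.28) in cytoplasm and -0.22 (SE 0.24) in polysomes. For MCM4, a catalytic ring subunit (chromosome 8, 47960185 to 47978160, plus strand, 17 exons), the cytoplasmic value was -0.18 (SE 0.22) and the polysomal one -0.53 with the widest error of the members (SE 0.42). Its polysomal interval ran from -1.36 to 0.30, so a fall of that size or no change is within the error. The authors' deposited table gives MCM4 a polysomal value of -0.12 (adjusted p = 0.496), so the unshrunken size depends strongly on the assumed prior. Over the 6 ring subunits the unshrunken median was -0.34 in cytoplasm and -0.048 in polysomes, and the 6 polysomal intervals all covered 0.

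**Figure D2:**
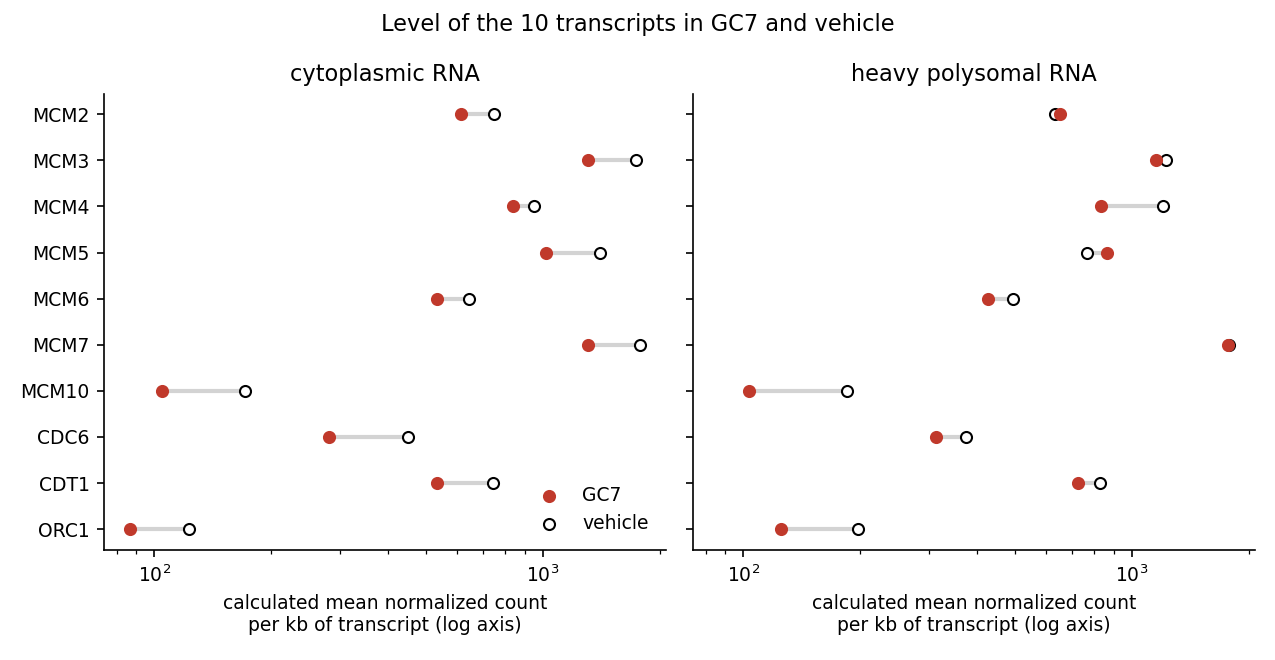
Calculated mean normalized count per kb of transcript (log axis) in GC7 (red, filled) and vehicle (open) for each gene, in cytoplasmic RNA on the left and heavy polysomal RNA on the right, with no error since no values per library were used. GC7 lies left of vehicle for all 10 genes in cytoplasm, and in polysomes right of vehicle for MCM2 and MCM5.

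Of the 3 loading factors, CDC6 and ORC1 passed the test, each in a different fraction. CDC6 (chromosome 17, 40287879 to 40304657, plus strand, 12 exons) had calculated cytoplasmic means of 1289 normalized counts with GC7 and 2049 with vehicle, or 62.9% of vehicle, with a 95% interval of the unshrunken log2 fold change from -0.96 to -0.38. The log2 fold change of CDC6 in the authors' deposited table was -0.61 (SE 0.15, adjusted p = 0.000728) in cytoplasm. In polysomes the calculated means of CDC6 were 1427 with GC7 and 1709 with vehicle, and the authors' deposited table gives -0.14 (SE 0.17, adjusted p = 0.507), so CDC6 was not called there.

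ORC1 (chromosome 1, 52372829 to 52404423, minus strand, 17 exons) had calculated polysomal means of 391 normalized counts with GC7 and 615 with vehicle, or 63.6% of vehicle with an interval of 48.6% to 83.2%. The authors' deposited table gives ORC1 a log2 fold change of -0.54 in polysomes (SE 0.21, adjusted p = 0.0143) and of -0.35 in cytoplasm (SE 0.23, adjusted p = 0.190). Its cytoplasmic means were 269.9 with GC7 and 384 with vehicle, which is 70.2% of vehicle, so the estimates in both fractions were similar in size while the call was made in polysomes. CDT1 (chromosome 16, 88803789 to 88809258, plus strand, 10 exons) was called in neither fraction. Its unshrunken values were -0.48 in cytoplasm (SE 0.21) and -0.19 in polysomes (SE 0.21), with adjusted p-values of 0.229 and 0.642 in the authors' deposited table.

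MCM10, which despite its name is no subunit of the ring, had the lowest unshrunken estimate of the 10 in both fractions (chromosome 10, 13161558 to 13211110, plus strand, 20 exons). Its calculated polysomal means were 471 normalized counts with GC7 and 843 with vehicle, or 55.9% of vehicle with an interval of 41.2% to 75.7%. The authors' deposited table gives -0.72 for MCM10 in polysomes (SE 0.24, adjusted p = 0.00404). In cytoplasm the calculated means of MCM10 were 477 with GC7 and 779 with vehicle, with an unshrunken log2 fold change of -0.71 (SE 0.24). Its shrunken value in the authors' deposited table, -0.53, missed the threshold (adjusted p = 0.0695), and CDC6 was lower than MCM10 on that scale.

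Whether polysomal RNA changed beyond the change in cytoplasm was tested as the difference of the 2 unshrunken log2 fold changes, polysomal minus cytoplasmic, with a normal test that took both errors as independent and Benjamini-Hochberg adjustment over 15669 genes. No member passed (0 of 10), and neither did any other gene (0% of all genes in either direction), the smallest adjusted p by that normal test being 1.00. At an unadjusted p under 0.05, 1 member was higher in this difference, against 1.09% of all genes, and none was lower, against 1.05%. The z of this difference had an SD of 0.86 over all genes, narrower than a standard normal. The test with independent errors was thus conservative, and it gave fewer small p-values than a calibrated test would. The member was MCM5, at 0.64 (SE 0.32, interval 0.0060 to 1.26). MCM7 stood at 0.44 (SE 0.31, interval -0.16 to 1.04), CDC6 at 0.41 (SE 0.26, interval -0.099 to 0.92), MCM2 at 0.32 (SE 0.26) and MCM3 at 0.32 (SE 0.27). CDT1 had 0.29 (SE 0.30) and MCM6 had 0.057 (SE 0.37). The difference was positive for 7 of 10 members, with a median of 0.30 against 0.0080 over all genes, and negative for MCM4 at -0.34 (SE 0.48), ORC1 at -0.14 (SE 0.29) and MCM10 at -0.13 (SE 0.33). The intervals of these members are wide, from -1.28 to 0.59 for MCM4, so a p that misses the threshold does not show equal change in both fractions. The call of CDC6 in cytoplasm and not in polysomes is likewise not shown to be a difference between fractions.

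**Figure D3:**
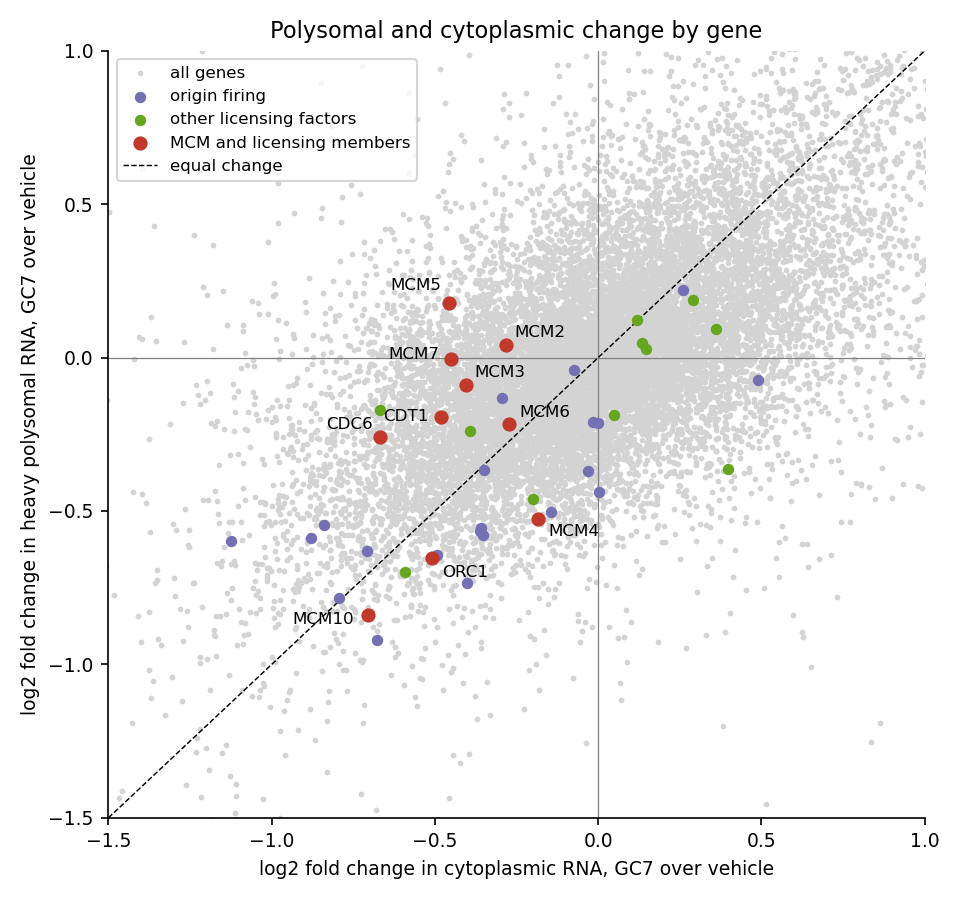
Unshrunken log2 fold change in heavy polysomal RNA against that in cytoplasmic RNA, GC7 over vehicle, for all genes (grey), the 10 members (red, named), 21 origin firing genes (purple) and 11 other licensing factors (green); the dashed line marks equal change, and 731 of 15701 genes lie outside the axes. MCM2, MCM3, MCM5, MCM6, MCM7, CDC6 and CDT1 lie above the line, and MCM10, ORC1 and MCM4 below it.

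In whole-cell RNA no member passed. After Benjamini-Hochberg adjustment over all 44682 genes of that table, 0 of 10 members passed, as did 0% of all genes, and the smallest adjusted p of the table was 0.642. At an unadjusted p under 0.05 there were also 0 members, against 1.33% of all genes lower and 1.66% higher. MCM10 was lowest of the members in whole cells, and the authors' deposited table gives it, after sign reversal, -1.10 (unadjusted p = 0.0729). The values of the other members in the authors' deposited table, with the same reversal, ran from -0.72 for MCM3 to 0.26 for MCM5, and 8 of 10 were negative. If these p-values came from a normal test, the SE would lie between 0.35 for MCM7 and 1.64 for MCM2, with a median of 0.63, which is above the unshrunken cytoplasmic SE of 0.15 to 0.28 over the members. Under that assumption, changes of the size seen in the fractions would be hard to detect for most members in whole cells. The power of the whole-cell comparison was not computed. Whole-cell values are not known to be shrunken, so their sizes are not compared with deposited ones of the fractions, except in the likeness described further on.

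The rest of the licensing and firing machinery was described from lists chosen with earlier results of these data known, by counts and medians and without a list test. Of 11 other licensing factors, ORC6, the smallest subunit of the origin recognition complex, was lower in both fractions, and the authors' deposited table gives it a cytoplasmic value of -0.51 (SE 0.17, adjusted p = 0.0113) and a polysomal one of -0.65 (SE 0.13, adjusted p = 8.75e-06). ORC2, ORC3, ORC4 and ORC5, the remaining subunits, had no call, nor did GMNN, the inhibitor of CDT1, or MCMBP, which binds free MCM subunits. For GMNN the authors' deposited table gives a polysomal value of -0.34 (SE 0.20, adjusted p = 0.103). ORC6 was thus the single call among the 11, against 1.95% of all genes lower in cytoplasm and 5.48% in polysomes, and none of the 11 was higher.

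Among 21 genes of origin firing, 3 were lower in cytoplasm at an adjusted p under 0.05, against 1.95% of all genes, and 11 in polysomes, against 5.48%. Of these, 2 were lower in both, and none of the 21 was higher. All 4 GINS genes, which encode the complex that completes the active helicase, were lower in polysomes. The authors' deposited table gives GINS2 a polysomal value of -0.88 (SE 0.15, adjusted p = 9.52e-08) and a cytoplasmic one of -0.60 (SE 0.18, adjusted p = 0.00442). TICRR, the firing factor also called treslin, had a polysomal value of -0.73 (SE 0.16) and a cytoplasmic one of -0.72 (SE 0.18) by the authors' deposited table. CLSPN, a mediator of the replication checkpoint, was lower in cytoplasm, where the authors' deposited table gives -0.79 (SE 0.21, adjusted p = 0.00112). CDC45, the other partner of the ring in the active helicase, was also called in polysomes (adjusted p = 0.0476 in the authors' deposited table). The unshrunken polysomal median was -0.55 over the firing genes and -0.20 over the 10 members, against -0.011 over all genes. Whether firing genes and members differ was not tested.

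Of 13 genes that remove licensing factors or the helicase, 1 was lower in cytoplasm, against 1.95% of all genes, and 3 in polysomes, against 5.48%. SKP2, an F-box protein that marks CDT1 for degradation, was lower in both, and the authors' deposited table gives it a cytoplasmic value of -0.52 (SE 0.21, adjusted p = 0.0369) and a polysomal one of -0.48 (SE 0.16, adjusted p = 0.00640). PCNA, the clamp on which CDT1 is recognised for destruction in S phase, had a polysomal value of -0.49 (SE 0.18, adjusted p = 0.0138) by the authors' deposited table. LRR1, which directs removal of the helicase at termination, had -0.46 (SE 0.14, adjusted p = 0.00376) by the authors' deposited table. DTL, the receptor that recognises CDT1 on PCNA, had no call, and the authors' deposited table gives it -0.28 for cytoplasm and -0.10 for polysomes.

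Of 18 proliferation genes and cell cycle regulators, 9 were lower in cytoplasm, against 1.95% of all genes, and 9 in polysomes, against 5.48%, with 7 in both and none higher. AURKA, BIRC5 and FOXM1, genes of cycling cells, were lower in both fractions. CDK1 and RRM2 were lower in cytoplasm only, and TYMS in polysomes only. MKI67, TOP2A, CCNB1 and PLK1, also markers of cycling cells, passed in neither fraction, though their values were negative in both. E2F1, an activator of licensing genes, had a cytoplasmic value of -0.68 (SE 0.20, adjusted p = 0.00401) and a polysomal one of -0.57 (SE 0.17, adjusted p = 0.00189) by the authors' deposited table. E2F2 and E2F7, of the same family, were also called lower in both. E2F8 was called lower in polysomes only, where the authors' deposited table gives -0.78 (SE 0.24, adjusted p = 0.00225). MYBL2, a transcription factor that is itself an E2F target, had a cytoplasmic value of -0.95 (SE 0.15) and a polysomal one of -0.74 (SE 0.15) by the authors' deposited table. The unshrunken median of the 18 was -0.57 in cytoplasm and -0.50 in polysomes, with values between -0.99 and 0.27 in cytoplasm. CDKN1A, the CDK inhibitor p21, had no call, and the authors' deposited table gives it 0.13 for cytoplasm and 0.064 for polysomes. The part of cell cycle distribution in the values of the 10 members was not tested.

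**Figure D4:**
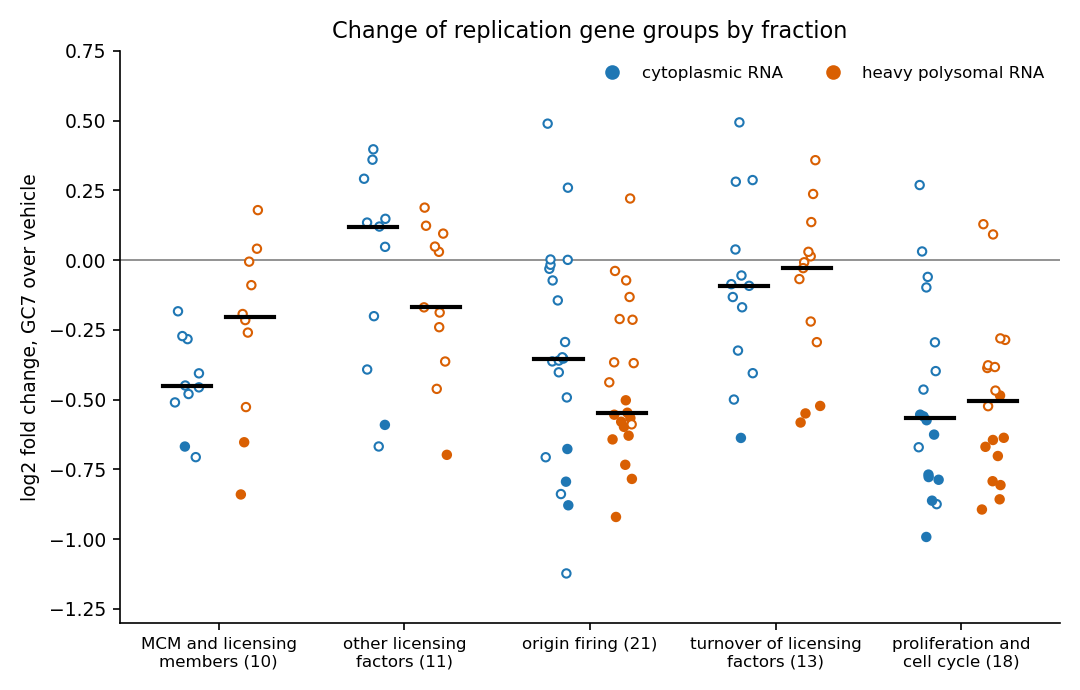
Unshrunken log2 fold change, GC7 over vehicle, of each gene of the members and 4 other groups in cytoplasmic (blue) and heavy polysomal RNA (orange); filled points have a deposited adjusted p under 0.05, open points do not, and black bars are medians. In polysomes 2 of 10 members and 11 of 21 firing genes are filled, all below 0.

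Runs of at least 3 proline codons (CCN) were counted in the coding sequence of the canonical transcript, since eIF5A is known for its action at such runs. MCM10 and ORC1 held a run each, and the other 8 members none, where 26.2% of 12880 measured coding genes hold at least 1. The runs are shown with 4 codons on either side and the codons of the run in capitals, codons counted from the start codon.
MCM10 (codons 640 to 650 of 874): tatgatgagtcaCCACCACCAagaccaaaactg
ORC1 (codons 74 to 84 of 861): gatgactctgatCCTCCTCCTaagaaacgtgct
The polysomal minus cytoplasmic difference was -0.13 (SE 0.33) for MCM10 and -0.14 (SE 0.29) for ORC1. The part of these runs in the values of either gene was not tested. Over all measured coding genes the median difference was 0.049 for the 3380 with a run and -0.0048 for the 9500 without. Genes with a run had longer coding sequences, with a median of 2040 bases against 1245, and the part of length was not tested.

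Genes whose pattern was most like that of the members were found by the distance over the 3 deposited log2 fold changes to the median of the members, which was -0.43 in whole cells with the sign reversed, -0.31 in cytoplasm and -0.10 in polysomes. Candidates were 7800 genes with all 3 values that were at least as abundant as the lowest member in both fractions. Genes of the lists and marker sets used here were left out. The nearest 5 were KMT2A (distance 0.022), AURKB (0.056), DDX23 (0.061), PRC1 (0.065) and TBC1D1 (0.072). None of these 5 had an adjusted p under 0.05 in either fraction in the authors' deposited table. The likeness rests on 3 comparisons added without scaling, although whole-cell values are not known to be shrunken.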

How the data were processed

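RNA of DU145 cells was measured in 18 libraries, 6 groups of 3, grouped by the labels. The submitters' processing notes name GRCh38, Salmon 1.4.0 and STAR 2.7.8a, with no role for each. The whole-cell table deposited by the authors holds a log2 fold change and an unadjusted p-value. Its base was read from the values: the step for 1 read in 1 library is 0.5283, as log2(1.5/0.5)/3 gives. The fraction table deposited by the authors holds, per fraction, a mean normalized count (a signal averaged over libraries), a shrunken log2 fold change, its SE, and the p-value before and after adjustment. The count tests planned in case of counts could not be run on these comparisons, so the authors' values were used.

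Members and gene lists were chosen with earlier results of these data known. All 10 members, and list genes with an adjusted p under 0.05, could be named, with others as examples of no call. Unshrunken values assume a Cauchy prior (natural log scale 0.195 for cytoplasm, 0.205 for polysomes), fitted so that z gave the deposited p. The recovered z lay within 0.1 in 97.4% (cytoplasm) and 99.5% (polysomes) of genes. The difference test dropped any gene whose z was off by more than 0.5. It was run on simulated data with independent errors and changes larger than those of the members. That run does not show its power at the sizes seen here. Intervals are 95%. Python 3.11.15, SciPy 1.17.1 and GENCODE 44 were used. Alternatives changed the prior scale, the error correlation, the count minimum (100), the adjustment and a fold limit.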

Additional observations from a re-analysis of the deposited data

How the results depend on the processing

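No paired analysis was possible because the deposited files hold comparisons and no values per library, and for the same reason no replicate could be left out. The calls of CDC6 in cytoplasm and of MCM10 and ORC1 in polysomes were unchanged with p-values adjusted anew over all genes and over genes with a mean normalized count of at least 100. With a further limit of 1 on the size of the deposited log2 fold change, 0 members were called lower in cytoplasm and 0 in polysomes, since no member reaches that size. The alternatives for whole-cell, cytoplasmic and polysomal values keep the sign of the deposited fold change, so they could not reverse a direction. In the polysomal minus cytoplasmic difference, where the sign could change, no direction of a member reversed, but sizes moved. The polysomal minus cytoplasmic difference of MCM4 was -0.029 with deposited fold changes and -1.22 with the prior scale at 0.8 times. The polysomal minus cytoplasmic test called 0 members under each alternative, while the number of all genes called moved with the setting: 0 as reported, 20 with errors correlated at 0.5, 212 of the 10366 genes that could be computed with the prior scale at 0.8 times, 3 with the prior scale made larger, 1 with deposited fold changes and 0 with the count minimum. With errors correlated at 0.5, MCM7 and CDC6 joined MCM5 at an unadjusted p under 0.05 (smallest adjusted p of a member 0.313). Precision is limited by 3 libraries a group and an unknown depth.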

Other observations

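Of the members, 4 start within 1000 bases of a protein-coding gene on the other strand. PRKDC, which starts 7 bases from MCM4, had an unshrunken log2 fold change of 0.99 in cytoplasm (SE 0.69) and -0.047 in polysomes (SE 0.17). PRPF38A, 179 bases from ORC1, had 0.42 in cytoplasm (SE 0.18) and 0.093 in polysomes (SE 0.14), while ORC1 had -0.51 and -0.65. TPRA1 beside MCM2 stood at 0.084 (SE 0.16) in cytoplasm and 0.30 (SE 0.14) in polysomes. AP4M1 beside MCM7 stood at -0.21 (SE 0.20) in cytoplasm and 0.031 (SE 0.16) in polysomes. None of these neighbours had an adjusted p under 0.05 in either fraction in the authors' deposited table. AP4M1 overlaps MCM7 on the other strand, and whether the counting used strand is not given in the sources used here, so reads of this pair may be shared.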
